A study of Mus musculus with 6 samples.

Results

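The insulin-like growth factor (IGF) binding proteins are a family of 7 secreted proteins, Igfbp1 to Igfbp7, and the liver message of each was followed here. The platform annotation named 15 probe sets of the array with exactly 1 of these symbols, out of 22626 analysed probe sets: 6 for Igfbp4, 3 for Igfbp7, 2 for Igfbp5 and 1 for each of Igfbp1, Igfbp2, Igfbp3 and Igfbp6. No probe set named a member together with another gene. Of the 15, 13 were bright enough to be tested and 2 were not, the single Igfbp6 probe set and 1 of Igfbp7. The livers came from male, obese KK/H1J mice 12 to 14 weeks old and weighing about 35 g, a strain that becomes diabetic through many genes. In the BPD group 3 mice (numbers 23, 28 and 36) had received, through the tail vein, an adenovirus encoding a bisphosphatase-deficient (BPD) form of PFK-2. PFK-2 is the bifunctional enzyme that makes and breaks down a regulatory fructose bisphosphate that activates glycolysis. In the GFP group 3 mice (numbers 22, 29 and 31) had likewise received an adenovirus encoding green fluorescent protein at the same stated dose. All 6 mice thus received adenovirus, no uninjected mice were included here, and livers were taken after 7 days of free feeding. The promoter that drives the viral genes is not given in the sources used here.

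Binding proteins hold nearly all of the IGF in blood and decide how much of it can reach its receptor. Igfbp3, and to a lesser degree Igfbp5, form a large long-lived complex with IGF and the acid-labile subunit, whereas Igfbp1 and Igfbp2 travel in small complexes that turn over quickly. In liver, insulin shuts off Igfbp1 transcription through the FoxO factors, and growth hormone drives the genes of IGF-1 and of the acid-labile subunit. Igfbp7 binds IGF weakly and is found in vessel walls and matrix.

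In the annotation of assembly GRCm38.p6, 4 of the genes lie as neighbouring pairs, Igfbp1 beside Igfbp3 on chromosome 11 and Igfbp2 beside Igfbp5 on chromosome 1, with 0 annotated genes between the members of either pair. The promoter windows of Igfbp1, which was not called, and of Igfbp2, Igfbp3 and Igfbp4, each of which had a probe set called lower under all 3 scalings between arrays, are shown for comparison. Each window runs from 250 bases before to 50 after a RefSeq start site (RefSeq, GRCm38.p6), 5′ to 3′ on the strand of the gene, and capitals mark matches on either strand to the 6 motifs searched, which are spelled out after the sequences.
Igfbp1, chr11:7197537-7197836, plus strand: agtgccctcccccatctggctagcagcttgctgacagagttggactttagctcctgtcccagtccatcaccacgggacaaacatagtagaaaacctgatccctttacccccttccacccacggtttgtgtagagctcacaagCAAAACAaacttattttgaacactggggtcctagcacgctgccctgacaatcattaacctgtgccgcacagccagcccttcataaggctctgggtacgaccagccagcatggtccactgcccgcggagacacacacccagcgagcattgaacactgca
Igfbp2, chr1:72824230-72824529, plus strand: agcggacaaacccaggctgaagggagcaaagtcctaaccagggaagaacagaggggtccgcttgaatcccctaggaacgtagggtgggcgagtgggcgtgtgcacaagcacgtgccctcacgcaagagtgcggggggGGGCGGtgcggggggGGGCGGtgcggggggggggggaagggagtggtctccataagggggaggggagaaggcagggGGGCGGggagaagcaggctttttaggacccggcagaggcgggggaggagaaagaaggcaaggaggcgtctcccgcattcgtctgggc
Igfbp3, chr11:7213874-7214173, minus strand: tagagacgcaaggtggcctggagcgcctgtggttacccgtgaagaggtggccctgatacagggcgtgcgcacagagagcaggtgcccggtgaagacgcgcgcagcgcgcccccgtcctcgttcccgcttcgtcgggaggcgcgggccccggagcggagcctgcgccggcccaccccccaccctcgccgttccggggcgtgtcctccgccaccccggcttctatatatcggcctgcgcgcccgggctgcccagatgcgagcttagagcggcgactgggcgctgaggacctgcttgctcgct
Igfbp4, chr11:99040994-99041293, plus strand: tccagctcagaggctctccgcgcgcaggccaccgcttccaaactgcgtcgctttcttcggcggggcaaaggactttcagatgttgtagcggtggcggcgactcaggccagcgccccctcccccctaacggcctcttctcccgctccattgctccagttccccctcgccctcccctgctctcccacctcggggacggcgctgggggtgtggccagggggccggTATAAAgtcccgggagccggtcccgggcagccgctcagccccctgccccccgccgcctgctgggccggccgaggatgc

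The motifs were CAAAACA, the core of the insulin response element that FoxO binds, the forkhead site GTAAACA, the TATA box TATAAA, the GC box GGGCGG, the STAT site TTCNNNGAA and the nuclear receptor site DR1, a direct repeat of AGGTCA with a single base between the copies. Among all 32817 promoter windows of this length, CAAAACA was found in 6.29%, GTAAACA in 3.65%, TATAAA in 13.6%, GGGCGG in 35.6%, TTCNNNGAA in 8.29% and DR1 in 0.04%. All 7 genes had a window, and Igfbp2 had a second one, for which no match was found. The Igfbp1 window held CAAAACA once, with its first base at -108 from the start site, and was the only member window with that match. The Igfbp2 window held GGGCGG 3 times, at -113, -98 and -37, and that of Igfbp7 on chromosome 5 held it 4 times, at -110, -96, -74 and -44. TATAAA was found at -28 in the Igfbp4 window and, on the other strand, at -148 in the Igfbp6 window. The windows of Igfbp3 and Igfbp5 held none of the 6 motifs. A match is a run of letters and not a shown binding site.

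The arrays differed in scale, and this bears on the direction of small changes. The deposited signals had been scaled to the same trimmed mean, but the median signal lay between 174 and 197 in BPD livers and between 135 and 157 in GFP livers, so log2 values were centred on each array's median. After centring, the median tested probe set differed by -0.21 between BPD and GFP livers. That median was 0.095 when the signals were left as deposited and -0.055 after quantile normalization. In total 28.6% of the 13575 tested probe sets passed the limma test at an adjusted p under 0.05. After centring 1126 were called higher and 2759 lower. As deposited these counts were 2265 and 1314, and after quantile normalization 1684 and 1633. Which direction held more calls thus changed with the scaling. The shares of all genes called that are given below are those of the centred fit. Liver tissue was evident from hepatocyte markers such as albumin, with a mean Alb signal of 16231 in BPD and 19217 in GFP livers. BPD liver 36 stood apart from the other BPD livers in markers of other cell types. The summed signal of macrophage markers was 13471 in liver 36, against 31363 and 28929 in BPD livers 23 and 28 and 4156 to 12056.5 in GFP livers, and that of stellate and fibroblast markers was 6385 in liver 36, against 21837 and 19836 in the other 2 BPD livers and 4899 to 6049 in GFP livers. The 3′ to 5′ ratio of the Gapdh control probe sets, a sign of RNA quality, averaged 0.779 in BPD and 0.826 in GFP livers (exact permutation test over 6 livers, 2-sided p = 0.5; the smallest p possible is 0.1).

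After centring, messages of 4 of the 7 binding proteins, Igfbp2, Igfbp3, Igfbp4 and Igfbp5, were called lower in BPD livers by their brightest probe set, against 22.2% of all 8151 tested genes. The Igfbp5 call was lost with the deposited scaling and on leaving out some single mice. Igfbp6 was too dim to test, and Igfbp1 was not distinguishable between the groups. Of the 15 member probe sets, 9 were called lower (limma, adjusted p under 0.05), against 20.3% of all tested probe sets, and 6 of those 9 belong to Igfbp4 and so measure 1 message. None of the tested members was called higher (0 by limma; 1, the bright Igfbp7 probe set, had an unadjusted p under 0.05), against 8.29% of all tested probe sets. The groups did not overlap on the deposited scale in 43.7% of all tested probe sets and after centring in 46.7%. On the deposited scale all BPD livers lay below all GFP livers in 8 member probe sets (16.5% of all tested) and above them in 1 (27.1% of all tested). After centring they lay below in 10 (34% of all tested) and above in 0 (12.7% of all tested). The median log2 difference of the 13 tested members was -0.87, against -0.21 for all tested probe sets. Without BPD mouse 36, 10 member probe sets were called lower and 1 higher. Over all probe sets 3971 were then called in either direction, against 3885 with all 6 livers. Their split by direction without that mouse was not computed, so neither member count has a background for its direction. Both the 10 below after centring and the 10 called without that mouse include the Igfbp5 probe set 1422313_a_at, which passed the brightness filter only through GFP livers, where it is higher.

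**Figure D1:**
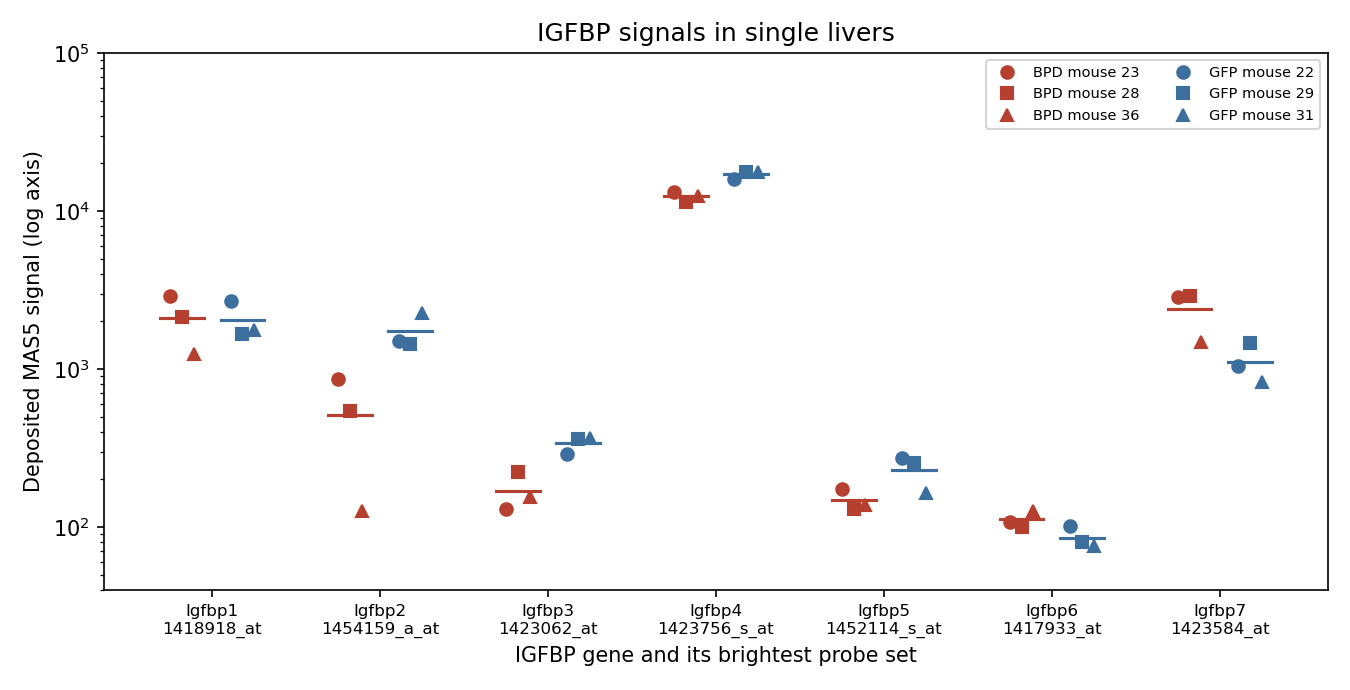
Deposited signal (log axis) of the brightest probe set of each IGFBP gene in each of 3 BPD (red) and 3 GFP (blue) livers, with the group mean as a line. Igfbp2, Igfbp3 and Igfbp4 do not overlap between the groups and are lower in BPD livers, the Igfbp7 probe set shown is higher without overlap, and Igfbp1 overlaps; heights of different probe sets cannot be compared.

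Igfbp2 showed the largest difference of the family. It is a product of hepatocytes that leptin raises in mice. Its signal was 862, 539 and 127 in BPD livers 23, 28 and 36, against 1506, 1442 and 2269.7 in GFP livers 22, 29 and 31. All BPD livers lay below all GFP livers, and liver 36 stood far below the other 2, so that the highest and lowest BPD livers differed 6.80-fold while the GFP livers differed 1.57-fold. BPD livers averaged 509 ± 368 and GFP livers 1739 ± 461 (SD, n = 3 each). The log2 difference was -2.36 ± 0.55 (SE), or 5.14-fold lower in BPD livers (limma adjusted p = 0.0122). Without BPD mouse 36 the difference was -1.62 (limma adjusted p = 0.00466), and without BPD mouse 23 it was -2.94 (limma adjusted p = 0.0054). The call held under each of the 17 alternatives run, with differences from -2.94 to -1.62. Left as deposited, the signals differed by -2.06, and after quantile normalization by -2.13.

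Igfbp3, the main carrier of IGF in the circulation, is made in rat liver largely by cells other than hepatocytes. Its signal was 129, 222 and 154 in BPD livers and 291, 358 and 368 in GFP livers, so the groups did not overlap. BPD livers averaged 168 ± 48.1 and GFP livers 339 ± 41.8 (SD, n = 3 each). The log2 difference was -1.27 ± 0.19 (SE), 2.41-fold lower in BPD livers (limma adjusted p = 0.00183). Its difference ranged from -1.42 to -0.97 over the 16 alternatives in which it was tested and it was called in each of these 16. Without BPD mouse 36 it was -1.25. The probe set was too dim for the filter at the 60th percentile and could not be tested there.

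Igfbp4, which mostly restrains IGF action and is destroyed by the protease PAPP-A, was measured by 6 probe sets that stem from 3 source sequences. On its brightest probe set (1423756_s_at) the signal was 13259, 11389.7 and 12413 in BPD livers and 15967, 17587 and 17683.5 in GFP livers. On its dimmest (1421991_a_at) it was 1287, 1585 and 1999.6 in BPD livers and 2869, 2823 and 2927 in GFP livers. The groups did not overlap on any of the 6. On the brightest, BPD livers averaged 12354 ± 936 and GFP livers 17079 ± 964 (SD, n = 3 each). On the dimmest, BPD livers averaged 1624 ± 358 and GFP livers 2873 ± 52.3. All 6 agreed in direction, with log2 differences from -1.14 ± 0.19 on 1421991_a_at to -0.72 ± 0.12 on 1437405_a_at (SE) and limma adjusted p from 0.00271 to 0.00441.

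The size of the Igfbp4 difference moved with scaling more than that of Igfbp2 or Igfbp3. With the deposited scaling the 6 probe sets ranged from -0.84 to -0.42 and were all called. With quantile normalization they ranged from -0.76 to -0.062, and the 2 probe sets called were 1421992_a_at (-0.42, limma adjusted p = 0.0163) and 1421991_a_at (-0.76, limma adjusted p = 0.0167). The 3 brightest probe sets lay near 0 there, at -0.12, -0.062 and -0.090 (limma adjusted p of 0.302, 0.577 and 0.495).

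Igfbp5 attaches to extracellular matrix and, like Igfbp3, can join the complex with the acid-labile subunit. The brighter of its probe sets (1452114_s_at) read 173, 129.6 and 138 in BPD livers and 272, 255 and 164 in GFP livers. BPD liver 23 lay above GFP liver 31 on the deposited scale, although the groups separated after centring. The log2 difference was -0.87 ± 0.24 (SE, n = 3 each; limma adjusted p = 0.0232). This call was lost with the deposited scaling (-0.57, limma adjusted p = 0.0974) and when BPD mouse 28 (-0.75, limma adjusted p = 0.095), GFP mouse 22 (-0.70, limma adjusted p = 0.0815) or GFP mouse 29 (-0.85, limma adjusted p = 0.0583) was left out. The other probe set (1422313_a_at) read 53.1, 85.7 and 115 in BPD livers and 89.1, 163 and 128 in GFP livers. Its difference of -0.82 ± 0.28 (SE) did not pass (limma adjusted p = 0.0559), and it entered the test only through its higher level in GFP livers.

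Igfbp1, the member most directly under insulin control, overlapped between the groups. Its signal was 2912, 2148 and 1249.7 in BPD livers and 2694, 1674 and 1773 in GFP livers. The highest and the lowest of the 6 livers were both BPD livers. BPD livers averaged 2103 ± 832 and GFP livers 2047 ± 562 (SD, n = 3 each). The centred log2 difference was -0.31 ± 0.32 (SE), with a 95% interval from -1.03 to 0.41 (limma adjusted p = 0.484). The difference was -0.010 for the signals as deposited and turned to 0.087 after quantile normalization, and it passed under 0 of the 17 alternatives. Its neighbour Igfbp3 was called lower in the same livers, but the difference between the 2 genes was not tested.

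Igfbp6, which prefers IGF-2 over IGF-1, lay just under the brightness filter. Its signal was 108, 100.3 and 127 in BPD livers and 101, 79.7 and 76.0 in GFP livers. BPD liver 28 fell below GFP liver 22, so the groups overlapped. When every probe set was tested the log2 difference was 0.031 ± 0.24 (SE, limma adjusted p = 0.941).

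Igfbp7 had deposited signals in BPD livers above those of all GFP livers on 1 of its 3 probe sets. The bright probe set (1423584_at) read 2866, 2894 and 1477 in BPD livers and 1047, 1456 and 822 in GFP livers. The groups did not overlap on this scale, but BPD liver 36 and GFP liver 29 were almost level, and after centring they overlapped. BPD livers averaged 2412 ± 810.2 and GFP livers 1109 ± 322 (SD, n = 3 each). The centred log2 difference of 0.78 ± 0.27 (SE) narrowly missed the threshold (limma adjusted p = 0.0582). It passed with the deposited scaling (1.08, limma adjusted p = 0.0293), with quantile normalization (1.12, limma adjusted p = 0.0346), with array weights (0.80, limma adjusted p = 0.0365), without BPD mouse 36 (1.08, limma adjusted p = 0.00814) and without GFP mouse 29 (0.94, limma adjusted p = 0.0496). The difference was above 0 in all 17 alternatives.

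The other 2 Igfbp7 probe sets were dim and did not follow. That called 1437804_at read 15.1, 235 and 151 in BPD livers and 93.5, 207 and 244 in GFP livers, with a log2 difference of -1.06 ± 0.64 (SE, limma adjusted p = 0.238). It passed the brightness filter only through GFP livers, and the signal of BPD liver 23 was under the 16.3 that was added to every signal for the log scale. The third, 1423585_at, read 51.5, 86.7 and 39.4 in BPD livers and 51.4, 56.5 and 42.6 in GFP livers and was too dim to test. When every probe set was tested its difference was -0.16 ± 0.26 (SE, limma adjusted p = 0.697).

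**Figure D2:**
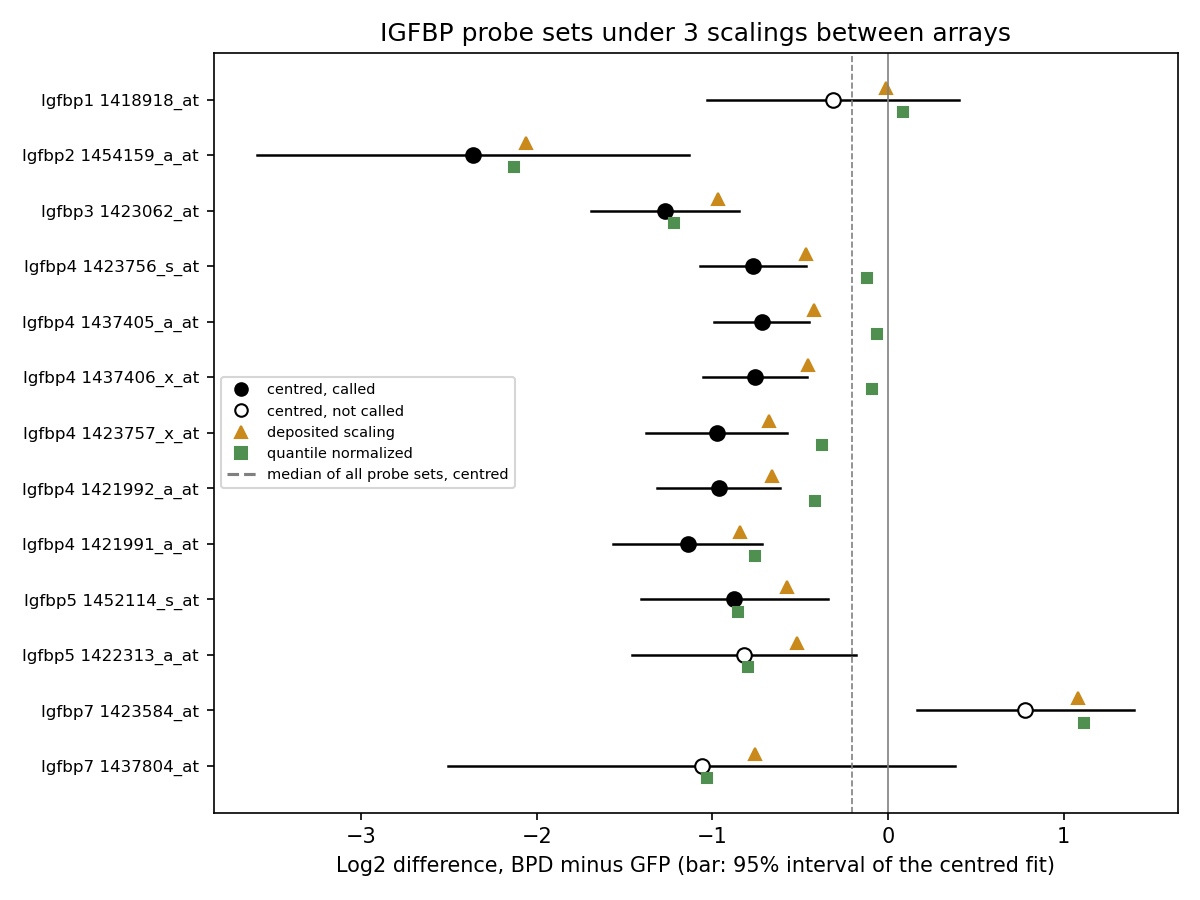
Log2 difference (BPD minus GFP) of the 13 tested IGFBP probe sets, with the 95% interval of the centred fit (filled circle, adjusted p under 0.05), and the same difference with the deposited scaling (triangle) and after quantile normalization (square). Igfbp2 and Igfbp3 lie near or below -1 under all 3 scalings, the 3 brightest Igfbp4 probe sets come close to 0 with quantile normalization, and the 1423584_at probe set of Igfbp7 is above 0 under all 3.

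Hepatocyte markers moved with the groups beside the members that were lower. After centring, 10 of 10 hepatocyte markers were called lower, against 22.2% of all 8151 genes tested. Hpd differed by -1.53, Fah by -1.78, Cps1 by -0.96 and Otc by -1.43. As deposited 6 of the markers were lower, where 1314 of the 13575 tested probe sets were. After quantile normalization, where Alb turned to 0.090, 4 of them were lower, beside 1633 probe sets. The summed signal of the 10 markers ranged from 98098 to 108314 in BPD livers and from 148455 to 156757 in GFP livers. Fewer hepatocytes and less message per hepatocyte cannot be told apart in whole tissue. To set the members against these markers without any scaling between arrays, the mean log2 value of the 10 markers was subtracted within each array, a measure chosen after the values had been seen. The median of the markers was used first and the mean was preferred once the values of the median form were known, so both are given. With 3 livers per group the smallest possible p is 0.1, so none of these 7 comparisons can pass 0.05 in either form.

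Against the mean of the hepatocyte markers, Igfbp2 differed by -1.39 on the log2 scale, with all BPD livers below all GFP livers (exact permutation test, 2-sided p = 0.1, adjusted over the 7 genes 0.175). Against their median it differed by -1.18 and the groups overlapped (exact permutation test, p = 0.3, adjusted 0.42). The mean-form ratio was -3.39, -3.93 and -5.95 in BPD livers 23, 28 and 36 and -3.18, -3.24 and -2.67 in GFP livers. Without BPD mouse 36 the difference of Igfbp2 was -0.62 in the mean form and -0.40 in the median form.

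The brightest Igfbp4 probe set differed by 0.20 in the mean form and 0.41 in the median form, above GFP livers without overlap in both (exact permutation test, p = 0.1 in each, adjusted 0.175 and 0.233). The 6 Igfbp4 probe sets did not share this. Against the marker mean they ranged from -0.17 on 1421991_a_at to 0.25 on 1437405_a_at, 3 above GFP livers without overlap and 3 overlapping. Against the median they ranged from 0.043 to 0.46, 4 above without overlap and 2 overlapping. The share of all probe sets above without overlap on these ratios was not computed, so these counts have no background. Igfbp6 differed by 1.004 and 1.21, and the bright Igfbp7 probe set by 1.76 and 1.97, without overlap in both forms and with the same p-values as the Igfbp4 probe set. The marker mean itself differed by -0.97 after centring, so each mean-form difference is the centred difference raised by that amount. The centred difference of Igfbp6 itself was 0.031. Of the dim Igfbp7 probe sets, 1423585_at differed by 0.81 and 1.02 without overlap, and 1437804_at by -0.086 and 0.12 with overlap. Igfbp3 differed by -0.30 in the mean form (exact permutation test, p = 0.4, adjusted 0.467) and -0.086 in the median form (p = 0.8, adjusted 0.8), with overlap in both. The brighter Igfbp5 probe set differed by 0.099 (exact permutation test, p = 0.9, adjusted 0.9) and 0.31 (p = 0.4, adjusted 0.467), and Igfbp1 by 0.66 (p = 0.2, adjusted 0.28) and 0.87 (p = 0.2, adjusted 0.35), with overlap in both forms.

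**Figure D3:**
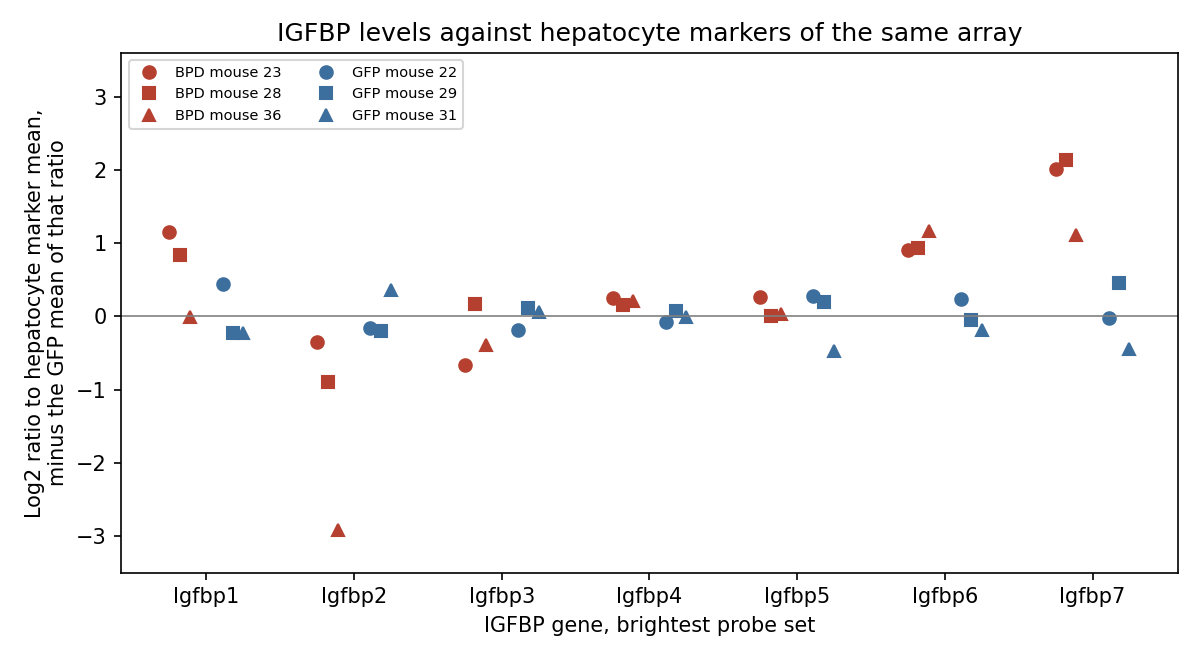
Log2 ratio of each IGFBP gene (brightest probe set) to the mean of 10 hepatocyte markers of the same array, minus the mean of that ratio in GFP livers, for 3 BPD (red) and 3 GFP (blue) livers. On this ratio Igfbp2 is lower in BPD livers, most so in liver 36. The probe sets shown for Igfbp4, Igfbp6 and Igfbp7 are higher without overlap, and Igfbp1, Igfbp3 and Igfbp5 overlap. The marker mean itself differs by -0.97 (BPD minus GFP) after centring.

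Markers of some other liver cells differed between the groups as well, and their part in the Igfbp3, Igfbp5 and Igfbp7 values was not tested. Of 12 macrophage markers 10 were tested and 7 were higher in BPD livers after centring, against 8.75% of all genes, led by Lyz2 (2.42), Aif1 (1.62), Cd14 (1.51) and Cd68 (1.68). The 3 not called were Csf1r (1.19), Vsig4 (0.48) and Clec4f, which went the other way (-0.58). As deposited 7 were higher and after quantile normalization 8. Leaving out BPD mouse 36 gave 9 such markers, and leaving out BPD mouse 23, mouse 28 of the same group or GFP mouse 31 gave 4. Of 13 stellate and fibroblast markers, all tested, 4 were higher, against 8.75% of all genes, Vim (2.04), Col3a1 (2.86), Lum (1.85) and Col1a1. The count was 6 as deposited and 4 after quantile normalization, 11 when BPD mouse 36 was left out and 2 when either of the other BPD mice was. Col1a1 averaged 566 in BPD livers and 17.6 in GFP livers, about the size of the constant, so its fitted difference of 3.38 depends on it, and it passed the filter only through BPD livers. Of 12 endothelial markers 10 were tested. Among them 1 was higher (Lyve1, 1.69), against 8.75% of all genes, and 1 lower (Kdr, -0.62), against 22.2% of all genes. Kdr was not called under either of the other scalings. The count higher was 2 as deposited, with Pecam1 (0.996) added, 1 after quantile normalization and 0 with the filter at the 60th percentile. In GFP livers Lyve1 averaged 104, near the filter signal of 98.8. The summed endothelial signal ranged from 3208 to 4837 in BPD and from 2790.3 to 4419 in GFP livers. Of 8 cholangiocyte markers 2 were bright enough to be tested and both were higher, Cd24a (3.61) and Krt23 (2.11), against 8.75% of all genes. Both passed the filter only through BPD livers, where they are high, so the count was favoured by the filter. Their summed signal was 1492 to 1933 in BPD and 96.7 to 198 in GFP livers. The defining markers Krt19, Krt7, Epcam, Sox9 and Cftr of cholangiocytes and Marco and Cd163 of macrophages were too dim to test.

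Among 7 genes of growth hormone input and the large complex, 4 were called lower and 0 higher by limma (0 higher also at an unadjusted p under 0.05), against 22.2% and 8.75% of all genes, and 3 were not called (3 lower with either of the other scalings, which did not call Cish), with a median difference of -0.82 against -0.22 for all genes. Igfals, which encodes the acid-labile subunit, read 171, 317 and 506 in BPD livers and 1325, 1278 and 1561 in GFP livers, without overlap. Its log2 difference was -2.43 ± 0.32 (SE, limma adjusted p = 0.00108), larger in size than that of Igfbp3, although the difference between the 2 genes was not tested. Ghr, the growth hormone receptor, read 4052, 3711 and 4882 in BPD livers and 8879, 8681 and 7006 in GFP livers (-1.26 ± 0.18, limma adjusted p = 0.00155). Socs2, a feedback inhibitor that growth hormone induces, differed by -1.31 ± 0.28 (limma adjusted p = 0.00919) and Cish, another such inhibitor, by -0.82 ± 0.26 (limma adjusted p = 0.0426), with overlap of the groups for Cish. The Socs2 groups nearly met, with BPD liver 36 at 310 and GFP liver 22 at 320.

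Of 7 ligands and receptors 3 were bright enough to be tested and 1 was lower, Igf1, against 22.2% of all genes. Irs1, which encodes a docking protein of the insulin and IGF-1 receptors, was not called after centring (0.40) but was called higher as deposited (0.71). The Igf1 signal was 6678, 5988.5 and 5365 in BPD livers and 8589, 8744 and 9917 in GFP livers. Its log2 difference of -0.90 ± 0.15 (SE, limma adjusted p = 0.00313) passed under all 3 scalings. All 3 tested Igf1 probe sets were lower, from -0.90 to -0.77. Of 14 proteases that cut binding proteins and their inhibitors 6 were tested, and 3 were lower, against 22.2% of all genes, Plg (plasminogen, -0.87), F2 (prothrombin, -0.88) and Adam9 (-0.80). As deposited 2 were called lower, and after quantile normalization 0 by limma. Ctsd, which encodes cathepsin D, was called higher in both (0.64 and 0.86). The gene of PAPP-A itself was too dim to test. Of 13 genes outside the family whose proteins carry an IGFBP domain 5 were tested. By limma 0 of these were called (1, Htra3, had an unadjusted p under 0.05), against 30.9% of all genes in either direction.

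**Figure D4:**
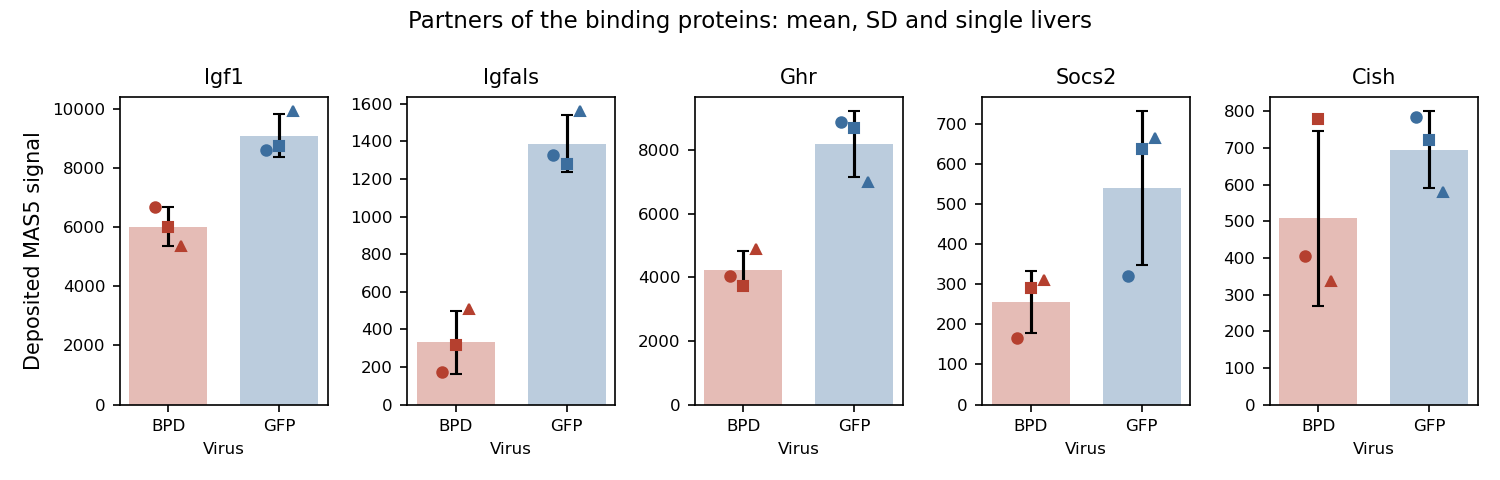
Deposited signal of 5 partner genes in BPD (left, red) and GFP (right, blue) livers; bars are means, error bars SD, and points single livers (3 per group). Igf1, Igfals, Ghr and Socs2 do not overlap between the groups and are lower in BPD livers, whereas the Cish groups overlap. For Socs2 the highest BPD liver and the lowest GFP liver are almost level.

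Of 13 listed genes that insulin represses through FoxO, as it does Igfbp1, 10 were tested, 2 were higher and 1 lower, against 8.75% and 22.2% of all genes, and 7 were not called, with a median difference of -0.097 against -0.22 for all genes. As deposited, 4 were higher and 0 lower, where 2265 and 1314 of the 13575 tested probe sets were. After quantile normalization 2 of the listed genes were higher and 0 lower, beside 1684 and 1633 probe sets. With a mouse left out, 1 to 3 were higher, with 1 on leaving out BPD mouse 28, and 0 to 2 were lower, with 0 on leaving out BPD mouse 28 or either of GFP mice 22 and 31, and 2 on leaving out BPD mouse 23 or GFP mouse 29. Cdkn1b, a cell cycle inhibitor, was higher by 0.74 ± 0.16 (limma adjusted p = 0.00993), and Gadd45a, a stress response gene, by 0.95 ± 0.24 (limma adjusted p = 0.016). Gadd45a passed the filter only through BPD livers (mean signal 177, against 64.0 in GFP livers). Pck1, a key enzyme of gluconeogenesis, was lower by -0.80 ± 0.23 (limma adjusted p = 0.0301) after centring, but was not called with the deposited scaling (-0.50) or with quantile normalization (-0.23).

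The genes most like each called member were sought among 8038 named genes by the mean absolute difference between centred patterns over the 6 arrays, which share the group difference. For Igfbp2 these were Hamp2 (0.40), Hamp (0.45) and Rdh16f2 (0.46), where the median gene lay at 1.12. Hamp and Hamp2, the mouse hepcidin genes, have closely similar transcripts, and their probe sets may share signal. For Igfbp3 they were Txnrd3 (0.079), Ivd (0.095) and Npr2 (0.11), with the median gene at 0.54. For Igfbp4 they were Zfand1 (0.019), Dhrs7b (0.029) and Klc4 (0.033), with the median gene at 0.32. For Igfbp5 they were Jtb (0.078), Sephs2 (0.080) and Adam9 (0.086), with the median gene at 0.42.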

How the data were processed

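Total liver RNA of 6 mice, each mouse a separate sample, was measured on 1-colour arrays with biotin label. In the deposited table each probe set has 1 intensity per array, which the authors made with MAS5 per the submitters' processing notes. Version, target and filters are not stated, and no presence calls were used. Their trimmed mean (2% at each end) was 499.9 on each array. All 6 columns were used and 0 were left over. The platform annotation gave the gene names, and the 64 control probe sets were left out.

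Values were analysed as log2(signal + 16.3), the constant being 10% of the median of all values. It understates changes of dim probe sets. Because array medians differed 1.46-fold, above the limit of 25%, the median of each array was subtracted. The filter kept a probe set whose mean over all arrays lay above the 40th percentile, a signal of 98.8, which left 13575. The groups were tested with limma 3.58.1 in R 4.3.3 (lmFit, eBayes with intensity trend, 2-sided, 4 residual degrees of freedom), with Benjamini-Hochberg adjustment over all 13575 and a threshold of 0.05. The test was tried on simulated data. In lists a gene is its brightest kept probe set. Every member probe set is reported, and of each list up to 4 members that passed, by smallest p. For each gene with a called probe set the 3 genes of most similar pattern are named, by the lowest mean absolute difference of log2 values after subtracting each one's own mean. Alb, the not-called genes and PAPP-A were named besides. Pfkfb1 was not analysed here. The number of arrays limits the precision. Alternatives were other scalings, constants, filters, eBayes settings, array weights, a Gapdh covariate, no _s_at or _x_at probe sets, and each mouse left out. Ratios to hepatocyte markers were added after seeing the data. The members and lists were chosen with earlier results of these data known.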

Additional observations from a re-analysis of the deposited data

How the results depend on the processing

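The results of 13 member probe sets were recomputed under up to 17 alternatives each. Of these recomputed values 192 kept their side of the threshold, 8 lost the call, 10 gained it, and 0 called values reversed. The number of member probe sets called lower, 9, was 5 with quantile normalization and 5 without the _s_at and _x_at probe sets, which leaves fewer members to test, and ranged from 8 to 10 with a mouse left out. The number called higher, 0, was 1 with the deposited scaling, 1 with quantile normalization and 1 with array weights, and 0 to 1 with a mouse left out, in each of the first 3 the Igfbp7 probe set 1423584_at. Of all 13575 tested probe sets, 2265 were higher and 1314 lower as deposited. With quantile normalization 1684 were higher and 1633 lower, against 1126 and 2759 after centring. With array weights 4515 were called in either direction, and without the _s_at and _x_at probe sets 3330. Over all probe sets 3885 were called, and 1984 to 3971 with a mouse left out, the fewest without BPD mouse 28. Among called probe sets, ratios to hepatocyte markers, added after seeing the data, reversed the sign of the brighter Igfbp5 probe set (0.099 against the marker mean, 0.31 against the median), of 4 of the 6 Igfbp4 probe sets against the mean (0.20, 0.25, 0.22 and 0.010) and of 6 against the median (0.41, 0.46, 0.43, 0.21, 0.22 and 0.043). Among tested probe sets that were not called, the sign also changed for Igfbp5 1422313_a_at (0.15 and 0.36) and Igfbp1 (0.66 and 0.87). For Igfbp7 1437804_at it changed against the median only (0.12). The overlap of the Igfbp2 groups depended on which of these forms was used. The cause of the losses with quantile normalization was not tested. Dim probe sets of Igfbp5, Igfbp6 and Igfbp7 lie near the brightness filter, so their signals limit what can be seen. No paired analysis was possible because the mouse numbers are not shared between the groups.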
